A study of Rattus norvegicus with 4 samples.

Results

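Genes of glycolysis and of the hypoxia response were examined in NRK-52E cells, a rat kidney line that the labels call proximal tubular epithelium. The set was given as 35 gene symbols, and 34 of them were found in the deposited table of 17768 genes by exact symbol; Adm (adrenomedullin) was not analysed here. Of 4 RNA-seq libraries, 2 are titled lv_Mettl3 and 2 are titled lv_nc. The labels describe a stable NRK-52E line made with a lentivirus (pLVX-IRES-Puro) that carries a murine Mettl3 cDNA, selected in 0.5 mg/ml and kept in 0.25 mg/ml puromycin in medium with 10% serum. This text stands with every library, all 4 carry the treatment label untreated, and neither the meaning of nc nor the vector of the lv_nc cells is given. The promoter that drives the cDNA, the oxygen level apart from a humidified incubator, and whether the 2 libraries of a group came from separate cultures are not given either, so the p-values rest on library-to-library spread alone, and that spread may be technical.

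Glycolysis splits glucose into pyruvate in the cytosol and, with lactate dehydrogenase, lets a cell make ATP without oxygen. Many of its genes, together with genes for pH control, blood vessel growth and removal of mitochondria, are targets of hypoxia-inducible factor (HIF), whose alpha subunit is hydroxylated and degraded when oxygen is present. Proximal tubule cells in the intact kidney rely mostly on fatty acid oxidation and make glucose, whereas kidney cell lines in culture commonly use glycolysis.

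Values are normalized read counts, that is, gene reads divided by 1 size factor per library, as deposited by the authors. The recovered gene reads numbered between 15068898 and 16622255 per library. Mettl3 itself, which encodes the catalytic subunit of the RNA m6A methyltransferase, was at 757 and 699.6 in the lv_Mettl3 libraries and at 719 and 767 in the lv_nc libraries, and the groups overlapped for this rat gene. The cDNA in the virus is murine, and whether its reads were assigned to the rat gene is not known, so the count neither bears out the label nor goes against it; directions below are those of the libraries so labelled. Of 20 proximal tubule markers 9 were found, and 2 of these had a mean of at least 100 (Ggt1 and Slc4a4). Lrp2, Cubn and Aqp1 were between 0 and 20.3 in each library. Of the 8 markers tested, 2 had a log2 fold change above 0 and 6 below 0, with a median of -0.41. Ggt1 had 3294 and 3757 in lv_Mettl3 and 2412 and 2530.4 in lv_nc. It was called higher by DESeq2 (adjusted p = 0.0345), not by limma (adjusted p = 0.378) or edgeR (adjusted p = 0.330). Of 10 general epithelial markers 7 were found, and 1 of these, Krt8, had a mean of at least 100. Krt8 was between 28296 and 33065, and Cdh1 between 0.923 and 8.79. Of the 6 epithelial markers tested, 1 had a log2 fold change above 0 and 5 below 0, with a median of -0.37. Endothelial and leukocyte markers summed to at most 44.4 and 66.1 in any library. Of 14 fibroblast and smooth muscle markers 10 were found. They summed to 85141.5 and 86760.2 in lv_Mettl3 and to 87384 and 74952 in lv_nc, mostly from Vim. Of the 10, 5 had a log2 fold change above 0 and 5 below 0. DESeq2 called 4 lower, of 9 with an adjusted p, against 1.07% of all genes with an adjusted p. These were the collagen genes Col1a1, Col1a2 and Col3a1 and the actin gene Acta2. Limma and edgeR called none of them. Col1a1, for example, had 1033 and 876 in lv_Mettl3, against 3914 and 8706 in lv_nc. In bulk RNA, fewer cells of a type and less RNA per cell cannot be told apart.

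Of the 34 genes 1, Car9, passed a count test, lower in lv_Mettl3, and none passed limma. Limma on log2(value + 1), with Benjamini-Hochberg adjustment over all 16391 genes tested, called 0 of the 34 genes, against 0.0183% of all genes tested. At an unadjusted p under 0.05 limma had 5 of them, 4 higher and 1 lower in lv_Mettl3, against 10.5% of all genes (5.54% higher and 4.93% lower). DESeq2 on the recovered reads, adjusted over all genes, called 1 of the 31 genes to which it gave an adjusted p. Of all genes with an adjusted p it called 2.52%. It called 0 of the set higher, against 1.45%, and 1 lower, against 1.07%. Each DESeq2 share in this text is of the genes with an adjusted p in that fit. EdgeR called 0 of the set, against 0.0305% of all genes tested. The log2 fold change was above 0 for 23 of 34 genes and below 0 for 11, with a median of 0.13; over all genes tested 50.7% were above 0 and the median was 0.01. Both lv_Mettl3 libraries lay above both lv_nc libraries for 13 genes, against 23.5% of all genes tested, and below both for 4, against 21.5%. Without lv_nc replicate 1 the median of the set was 0.007. DESeq2 then called 6 of the 34 genes, against 12.7% of all genes; it called 3 without lv_nc replicate 2, against 1.61%, and 0 without lv_Mettl3 replicate 1 or 2, against 0.415% and 0.452%.

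**Figure D1:**
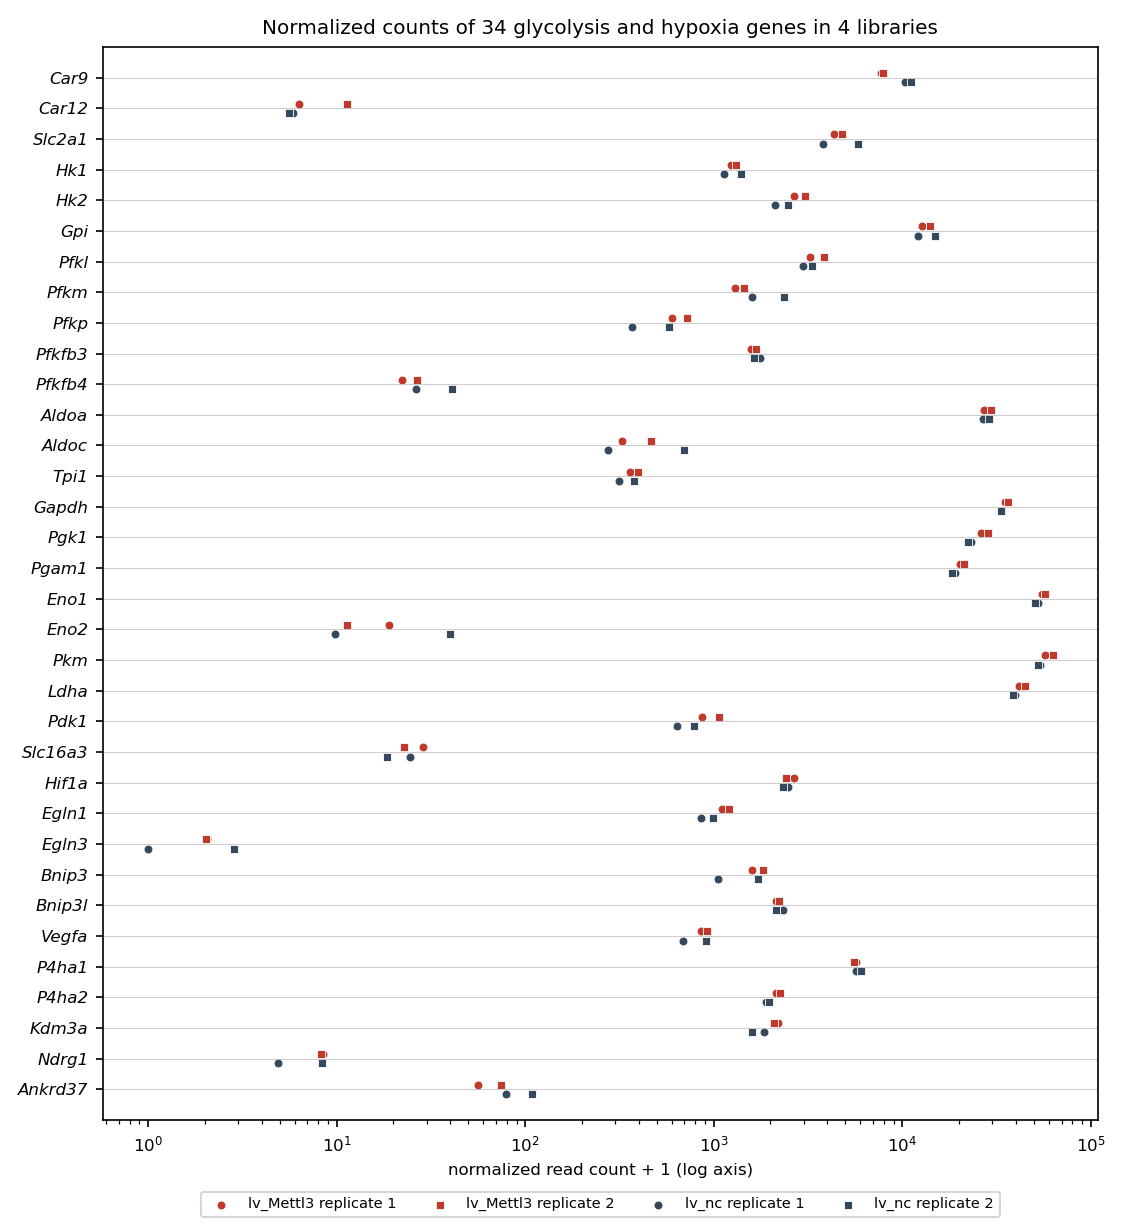
Normalized read count plus 1 (horizontal log axis) of the 34 genes, listed in order of their roles, in the 2 lv_Mettl3 libraries (red) and the 2 lv_nc libraries (dark); circles are replicate 1 and squares replicate 2. The counts run from about 1 for Egln3 to 62844 for Pkm, and for most genes the 4 points lie close together.

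Carbonic anhydrases turn carbon dioxide and water into bicarbonate and protons, and the HIF target Car9 does so at the outer face of the cell membrane. Car9 (ENSRNOG00000017073, chromosome 5, bases 59008933 to 59015528 in the deposited table, whose build no source used here names) had 7751 and 7929 normalized counts in the lv_Mettl3 libraries, against 10289.6 and 11151 in the lv_nc libraries. The groups did not overlap, and the gap between them was wider than the gap within either. The means were 7840.4 ± 126 in lv_Mettl3 and 10720.2 ± 609 in lv_nc (SD, n = 2 libraries each). Car9 fell in DESeq2 by 0.45 on the log2 scale (SE 0.14, adjusted p = 0.0407); limma gave a log2 fold change of -0.45 (SE 0.09) with an adjusted p of 0.378, and edgeR an adjusted p of 0.341. Its limma log2 fold change stayed between -0.508 and -0.392 when each library was left out in turn. The collagen and actin genes named above were lower in the same libraries, and their part in the Car9 result was not tested. Car12, a second membrane carbonic anhydrase, was near the detection limit, at 5.30 and 10.3 in lv_Mettl3 and 4.88 and 4.62 in lv_nc.

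HIF binds the core letters ACGTG or GCGTG of the hypoxia response element. These letters were searched on both strands in the 250 bases before the RefSeq start of each gene (GRCr8), where 31 of the 34 genes had an entry (not Pgk1, Bnip3l or Ndrg1). At least 1 match was found in 21 of the 31 genes (67.7%), against 39.6% of 27457 RefSeq genes, and ACGTG alone in 14 (45.2%), against 18.1%. CACGTG, which reads the same on both strands, counts for both searches. The windows of 3 genes are printed 5′ to 3′. Car9, the gene called by DESeq2, had no match in its window, and Ldha and Bnip3 have 3 separate stretches each, in capitals. Car12, Egln3, Gpi, Hk2, Pfkfb4, Pkm, Slc16a3, Tpi1 and Vegfa had no match either, and none of these was called. The windows lie at chr5:62558774-62559023 (+), chr1:106507842-106508091 (+) and chr1:203154963-203155212 (-) of GRCr8.
Car9: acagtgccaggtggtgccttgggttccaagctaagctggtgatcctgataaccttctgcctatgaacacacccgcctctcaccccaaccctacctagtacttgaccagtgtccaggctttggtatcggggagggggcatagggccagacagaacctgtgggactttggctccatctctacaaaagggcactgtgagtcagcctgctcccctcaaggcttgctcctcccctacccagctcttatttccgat
Ldha: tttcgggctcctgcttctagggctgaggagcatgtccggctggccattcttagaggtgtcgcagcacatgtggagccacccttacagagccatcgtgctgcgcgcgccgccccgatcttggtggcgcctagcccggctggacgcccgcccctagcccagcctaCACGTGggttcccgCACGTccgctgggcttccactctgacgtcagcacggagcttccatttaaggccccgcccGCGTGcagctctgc
Bnip3: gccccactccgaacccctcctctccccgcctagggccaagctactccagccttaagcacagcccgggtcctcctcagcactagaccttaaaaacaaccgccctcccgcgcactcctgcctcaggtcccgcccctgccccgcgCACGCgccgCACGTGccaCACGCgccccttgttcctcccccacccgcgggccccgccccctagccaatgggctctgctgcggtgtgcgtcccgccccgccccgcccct
In Ldha the matches begin 87, 86, 73 and 14 bases before the start, and in Bnip3 108, 99, 98 and 90 bases before it. The first pair in Ldha and the middle pair in Bnip3 are the 2 strands of 1 CACGTG. A match in this window is a description of the letters and not a measured binding site. Bases after the start and further upstream were not searched, so no match in a window does not show that the element is absent.

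Glucose enters through Slc2a1 (GLUT1) and is trapped by hexokinase. Slc2a1 was at 4339.6 and 4806 in lv_Mettl3, against 3785 and 5817 in lv_nc, where the 2 lv_nc libraries lay on either side of both lv_Mettl3 libraries. Its limma log2 fold change was -0.04 (SE 0.22, adjusted p = 0.956), and it was 0.27 without lv_nc replicate 2 and -0.35 without lv_nc replicate 1. Slc2a1 made up 90.9% ± 0.107 of the counts per kilobase over 7 glucose transporter genes in lv_Mettl3 and 88.8% ± 0.915 in lv_nc.

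The ubiquitous hexokinase gene Hk1 had 1242 and 1311 in lv_Mettl3 and 1133 and 1392 in lv_nc. Hk2, the inducible form, had 2666 and 3057 in lv_Mettl3, against 2115 and 2488 in lv_nc. The Hk2 groups did not overlap, and the log2 fold change was 0.32 (SE 0.13, limma adjusted p = 0.486; DESeq2 adjusted p = 0.501), with 0.198 without lv_nc replicate 1 and 0.433 without lv_nc replicate 2. Per kilobase the 2 genes stood at similar levels, and Hk2 took 51.4% and 53.4% of the hexokinase counts per kilobase in the lv_Mettl3 libraries, against 47.9% and 46.8% in the lv_nc libraries. That difference of 5.09 percentage points was larger than the spread within either group, but with 2 libraries against 2 the exact two-sided permutation test cannot go below p = 0.333, the value it gave. Gpi, which interconverts glucose and fructose phosphates, was between 12792 and 14024 in lv_Mettl3 and between 12174 and 14995 in lv_nc.

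Phosphofructokinase commits the sugar to glycolysis, and its 3 subunit genes had log2 fold changes of either sign, none of them called. Pfkm, the muscle-type subunit, had 1303 and 1444 in lv_Mettl3, against 1595 and 2359 in lv_nc. Pfkp, the platelet-type subunit, had 603 and 722 in lv_Mettl3, against 368 and 582 in lv_nc. Neither pair of groups overlapped, yet the lv_nc libraries of each gene lay far apart, with replicate 2 the higher in both.

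For Pfkm the log2 fold change was -0.50 (SE 0.20, limma adjusted p = 0.486; DESeq2 adjusted p = 0.193). For Pfkp it was 0.51 (SE 0.25, limma adjusted p = 0.514; DESeq2 adjusted p = 0.501). Neither was called with all 4 libraries. Pfkm ranged from -0.782 to -0.218 and Pfkp from 0.182 to 0.84 over the limma fits that left out 1 library.

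Pfkl, the liver-type subunit and the highest of these per kilobase, had 3225 and 3858 in lv_Mettl3 and 2963 and 3308 in lv_nc. As a share of the 3 genes per kilobase, Pfkm was 22.7% ± 0.953 in lv_Mettl3 and 32.8% ± 3.54 in lv_nc, and Pfkp was 14.4% ± 0.186 in lv_Mettl3 and 10.3% ± 1.59 in lv_nc. The Pfkm share was 10.1 percentage points lower (exact permutation p = 0.333, the smallest possible). Pfkfb3 and Pfkfb4 encode bifunctional enzymes that make and remove the activator fructose 2,6-bisphosphate. Pfkfb3 was between 1573 and 1668 in lv_Mettl3 and between 1644 and 1751 in lv_nc, and Pfkfb4 did not exceed 39.7 in any library.

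**Figure D2:**
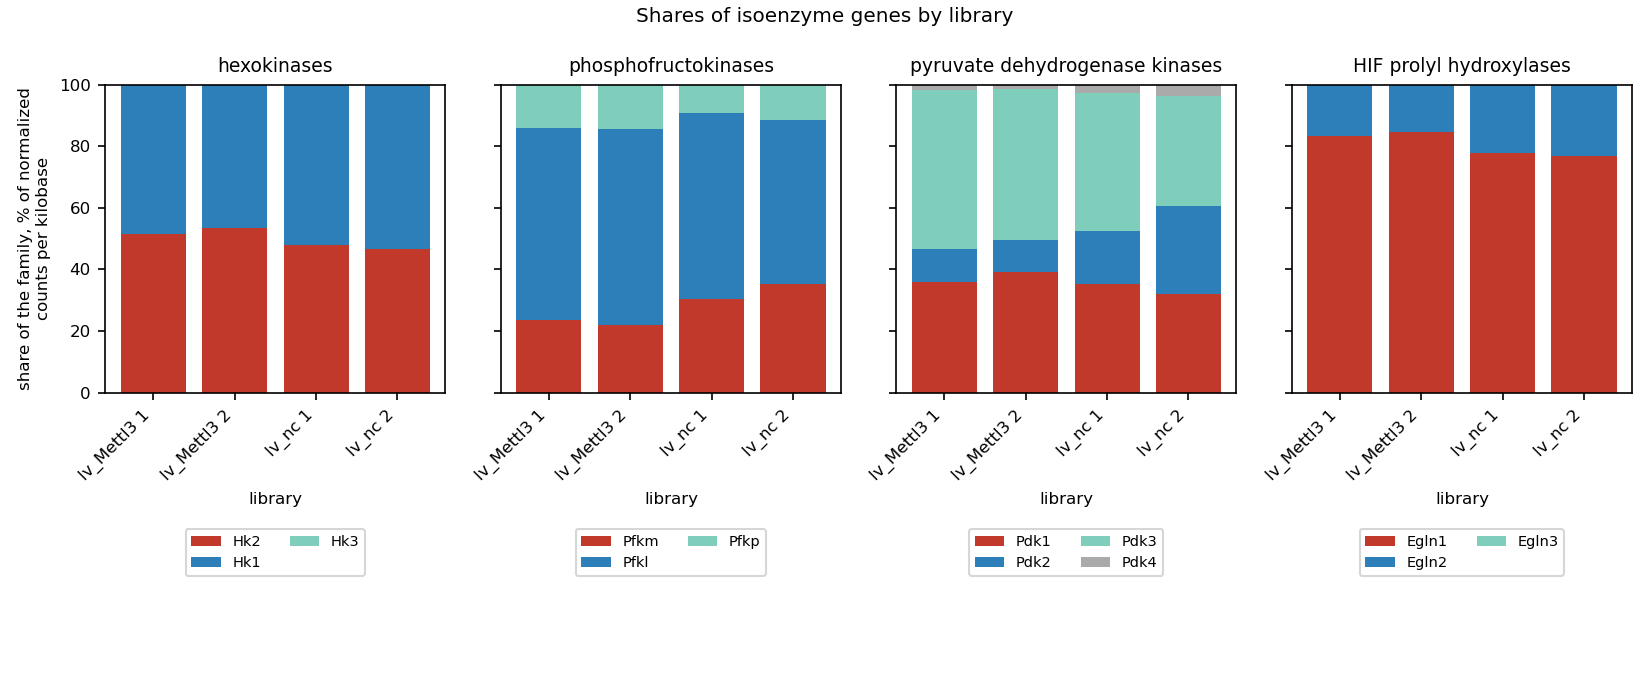
Share of each gene in 4 families, as a percentage of normalized counts per kilobase of deposited gene length, in the 2 lv_Mettl3 libraries (left) and the 2 lv_nc libraries (right) of each panel. The Pfkm share is 23.4% and 22.1% in lv_Mettl3 and 30.3% and 35.3% in lv_nc; Hk3 and Egln3 are under 1% and cannot be seen.

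The main genes of lower glycolysis were abundant. Together Aldoa, Gapdh, Pgk1, Pgam1, Eno1, Pkm and Ldha took 1.64% and 1.75% of all gene reads in lv_Mettl3, against 1.58% and 1.59% in lv_nc. For 6 of these 7 genes, Aldoa excepted, both lv_Mettl3 libraries lay above both lv_nc libraries, an arrangement seen for 23.5% of all genes tested, with log2 fold changes between 0.10 and 0.27 and no call by limma, edgeR or DESeq2.

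Pgk1, phosphoglycerate kinase, which makes the first ATP of the pathway, had the highest log2 fold change of the 6, with 26201 and 28583 in lv_Mettl3, against 23108 and 22426 in lv_nc. Its log2 fold change was 0.27 (SE 0.10, limma adjusted p = 0.471; DESeq2 adjusted p = 0.468). The limma value of Pgk1 ranged from 0.203 to 0.328 when 1 library was left out. Gapdh, which oxidizes glyceraldehyde 3-phosphate, was at 35034 and 36613 in lv_Mettl3 and at 33579 and 33276 in lv_nc, which gives 0.10 on the log2 scale (SE 0.10, limma adjusted p = 0.709). The 2 groups differed by 1.07-fold in their means.

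Pkm, pyruvate kinase, was the most abundant gene of the set by normalized count, at 56874 and 62844 in lv_Mettl3 and 53744 and 52381 in lv_nc, which gives 0.17 on the log2 scale (SE 0.11, limma adjusted p = 0.59). Eno1, an enolase, lay between 54962 and 57195 in lv_Mettl3 and between 50331 and 52538 in lv_nc. Pgam1, phosphoglycerate mutase, lay between 20230.4 and 21393 in lv_Mettl3 and between 18379 and 18946 in lv_nc. Aldoa, the main aldolase, overlapped between the groups, at 27145 and 29528 in lv_Mettl3 and 26945 and 28799 in lv_nc.

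The minor forms were scarce. Aldoc, the brain-type aldolase, had 325 and 465 in lv_Mettl3 and 276 and 694 in lv_nc, so the lv_nc libraries enclosed the others. Its limma log2 fold change ranged from -0.834 to 0.496 when 1 library was left out. Eno2, the neuronal enolase, averaged 14.2 ± 5.44 in lv_Mettl3 and 23.8 ± 21.2 in lv_nc (SD, n = 2 each). Eno1 made up 98.5% ± 0.0759 of the counts per kilobase of Eno1, Eno2 and Eno3 in lv_Mettl3 and 98.0% ± 0.270 in lv_nc.

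Several of these counts are uncertain because copies of the genes may take their reads. The sequences of copies and parent genes were not compared. Tpi1, triosephosphate isomerase, had 358 and 394 in lv_Mettl3 and 313 and 378 in lv_nc, far below its neighbours in the pathway, while LOC100911515, described in the table as triosephosphate isomerase-like, had 1295 and 822 in lv_Mettl3 and 933 and 2388 in lv_nc. A second gene described as Gapdh, LOC108351137, had 8931 and 10923 in lv_Mettl3 and 9474 and 10763 in lv_nc. Pseudogenes of Ldha, Pkm and Eno1 held 1973, 1481 and 1517 in lv_Mettl3 replicate 1, small beside their parent genes. Another copy of Eno1, LOC685431, was between 561 and 682. The gamma-enolase-like LOC100911625 had 21.2 and 295 in lv_Mettl3 and 22.5 and 67.4 in lv_nc, more than Eno2 itself in each library.

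Lactate dehydrogenase A turns pyruvate into lactate. Ldha had 41698 and 44549 in lv_Mettl3, against 39637 and 38519 in lv_nc, and the log2 fold change was 0.14 (SE 0.10, limma adjusted p = 0.623; DESeq2 adjusted p = 0.864). Of the 2 lactate dehydrogenase genes Ldha and Ldhb, Ldha took 98.5% ± 0.108 of the counts per kilobase in lv_Mettl3 and 97.7% ± 0.641 in lv_nc. Slc16a3 (MCT4), a lactate exporter induced by hypoxia in other cells, was between 21.7 and 27.6 in lv_Mettl3 and between 17.5 and 23.4 in lv_nc. Slc16a1 (MCT1), which carries lactate in either direction, made up over 99% of the counts per kilobase of the 3 monocarboxylate transporter genes in each library, with 4735 and 4828 normalized counts in lv_Mettl3 and 5698 and 6283 in lv_nc (limma log2 fold change -0.32, SE 0.09, adjusted p = 0.442; DESeq2 adjusted p = 0.317).

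Pyruvate dehydrogenase kinases keep pyruvate out of the mitochondrial citric acid cycle. Pdk1, a HIF target, had 866 and 1063 in lv_Mettl3, against 634 and 785 in lv_nc. The groups did not overlap, and the log2 fold change was 0.44 (SE 0.17, limma adjusted p = 0.471; DESeq2 adjusted p = 0.368), with a range of 0.290 to 0.597 when 1 library was left out. Its relative Pdk3, which is not among the 35 symbols, rose in DESeq2, with 1768 and 1893 in lv_Mettl3 and 1148 and 1252 in lv_nc (DESeq2 adjusted p = 0.012, with 0.61 on the log2 scale and an SE of 0.16; limma adjusted p = 0.326, edgeR adjusted p = 0.271). The limma log2 fold change of Pdk3 ranged from 0.547 to 0.672 when 1 library was left out. Pdk2 had 200.4 and 214 in lv_Mettl3 and 237 and 547 in lv_nc. Per kilobase Pdk3 was 50.3% ± 1.75 of the 4 kinase genes in lv_Mettl3 and 40.4% ± 6.49 in lv_nc, and Pdk1 36.0% and 39.3% in lv_Mettl3 and 35.3% and 31.9% in lv_nc.

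**Figure D3:**
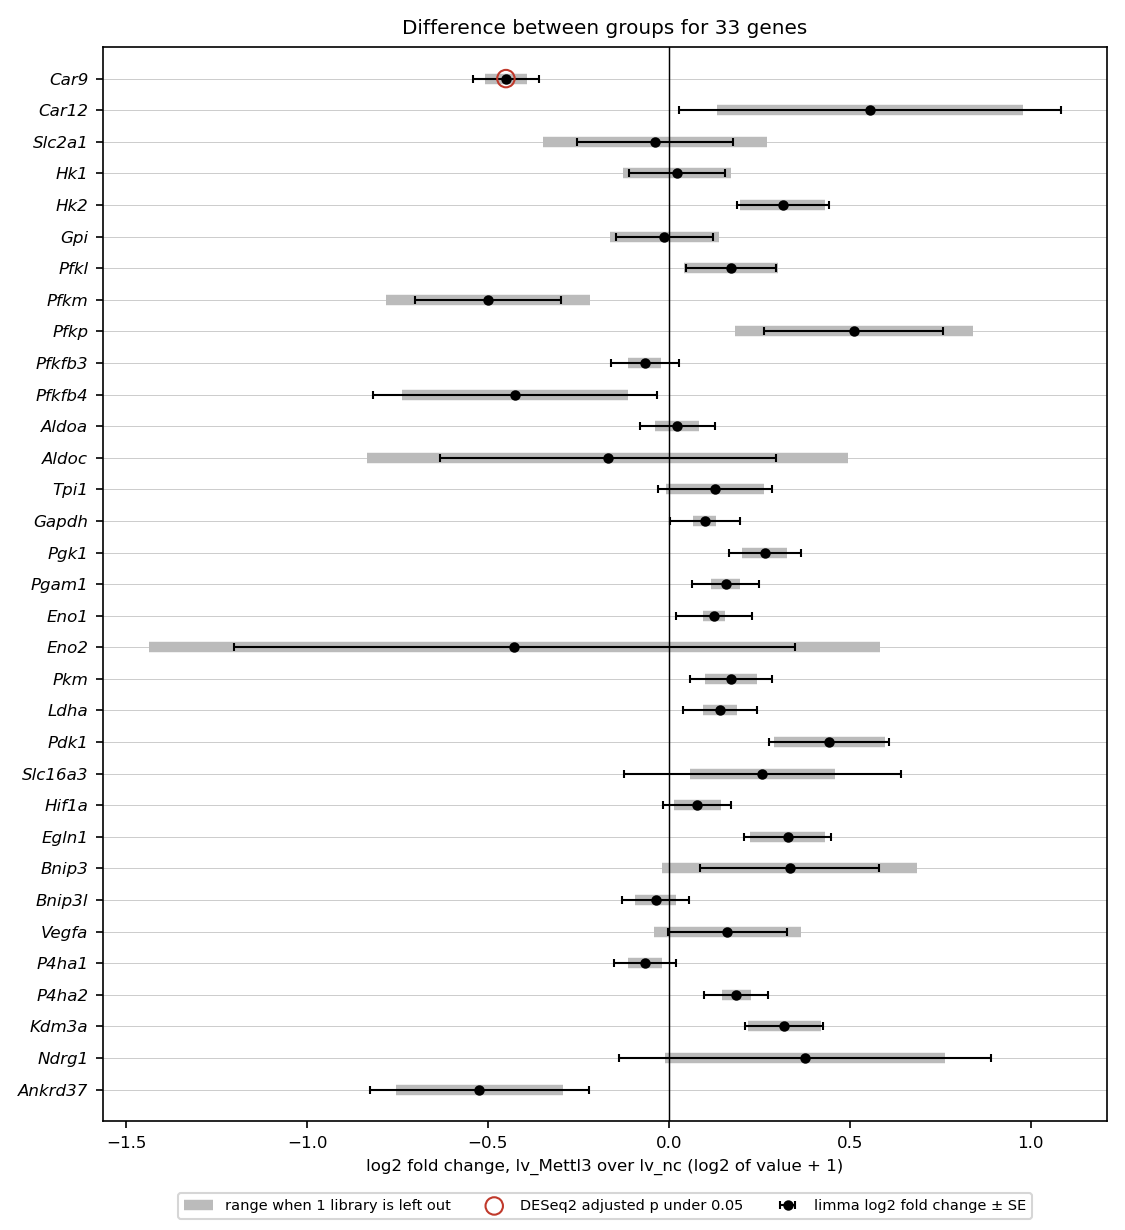
Limma log2 fold change of lv_Mettl3 over lv_nc on the log2(value + 1) scale (horizontal axis) for 33 genes, without Egln3, which had at most 2 reads in a library; points are estimates, black bars the SE, and grey bars the range when 1 library is left out. Car9, ringed, is the gene called by DESeq2, at -0.45; most other estimates lie between -0.5 and 0.5, and several grey bars cross 0.

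Oxygen sensing rests on Hif1a and the prolyl hydroxylases. Hif1a mRNA, from which the oxygen-regulated subunit is made, had 2651 and 2422 in lv_Mettl3 and 2466 and 2337 in lv_nc (log2 fold change 0.08, SE 0.10, limma adjusted p = 0.769), and the groups overlapped. HIF activity is set largely by protein stability, which these counts do not measure. Egln1 (PHD2), the main HIF prolyl hydroxylase and itself a HIF target, had 1099 and 1204 in lv_Mettl3, against 852 and 985 in lv_nc. The Egln1 groups did not overlap, and the log2 fold change was 0.33 (SE 0.12, limma adjusted p = 0.471; DESeq2 adjusted p = 0.55), with a range of 0.224 to 0.433 over the fits without 1 library. Egln3 (PHD3), strongly induced by hypoxia in many cells, was near 0, with 1 and 1 reads in lv_Mettl3 and 0 and 2 reads in lv_nc, so no fold is given.

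Egln1 took 83.3% and 84.7% of the counts per kilobase of Egln1, Egln2 and Egln3 in lv_Mettl3, against 77.6% and 76.7% in lv_nc (exact permutation p = 0.333, the smallest possible). The deposited Egln1 length is 669 bases, shorter than the 1987 of Egln2, which raises the Egln1 share; on counts not divided by length the difference was 10.7 percentage points instead of 6.85. Egln2 (PHD1), outside the 35 symbols, had 654 and 645 in lv_Mettl3 and 729.8 and 888 in lv_nc.

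Of the remaining hypoxia-responsive genes none was called with all 4 libraries. Kdm3a, a histone demethylase that needs oxygen, had 2204 and 2080.3 in lv_Mettl3, against 1841 and 1601 in lv_nc. Its log2 fold change was 0.32 (SE 0.11, limma adjusted p = 0.465, DESeq2 adjusted p = 0.479). In limma it ranged from 0.218 to 0.42 when 1 library was left out. Ankrd37, an ankyrin repeat gene induced by HIF, had 55.1 and 73.4 in lv_Mettl3, against 78.2 and 108.0 in lv_nc. Its log2 fold change of -0.52 had an SE of 0.30 (limma adjusted p = 0.554; DESeq2 adjusted p = 0.823), and the value ranged from -0.755 to -0.293 when 1 library was left out.

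Bnip3 and Bnip3l encode receptors that send mitochondria to autophagy. Bnip3 had 1586 and 1825 in lv_Mettl3 and 1057 and 1724 in lv_nc, so its groups overlapped through lv_nc replicate 2. The log2 fold change was 0.33 (SE 0.25, limma adjusted p = 0.63, DESeq2 adjusted p = 0.771). The limma value was 0.69 without lv_nc replicate 2 and -0.02 without lv_nc replicate 1. Bnip3l was between 2142 and 2218 in lv_Mettl3 and between 2147 and 2326 in lv_nc. Vegfa, the endothelial growth factor, had 852 and 923 in lv_Mettl3 and 689 and 912 in lv_nc, which gives 0.16 on the log2 scale (SE 0.16, limma adjusted p = 0.72).

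P4ha1 and P4ha2 encode catalytic subunits that hydroxylate collagen prolines. P4ha1 was at 5665 and 5559 in lv_Mettl3, against 5684 and 6074 in lv_nc, and P4ha2 at 2127 and 2249.7 in lv_Mettl3, against 1889 and 1956 in lv_nc. Neither pair of groups overlapped. Of all genes tested, 23.5% had both lv_Mettl3 libraries above both lv_nc libraries and 21.5% had both below. For P4ha1 the gap between the groups, 5665 to 5684, was smaller than the gap between its lv_nc libraries. The log2 fold changes were -0.07 (SE 0.09) for P4ha1 and 0.19 (SE 0.09) for P4ha2, with limma adjusted p of 0.786 and 0.51. P4ha2 was 25.4% ± 1.01 of the pair per kilobase in lv_Mettl3 and 22.2% ± 0.381 in lv_nc (exact permutation p = 0.333). Ndrg1, a stress gene strongly induced by hypoxia in many epithelial cells, was barely detected, at 7.42 and 7.23 in lv_Mettl3 and 3.91 and 7.39 in lv_nc (limma log2 fold change 0.38, SE 0.51, adjusted p = 0.801).

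The set varied between libraries of the same group as well as between groups. Centred on each gene's mean over the 4 libraries, the median gene of the set stood at 0.02 and 0.12 on the log2 scale in lv_Mettl3 replicates 1 and 2 and at -0.11 and 0.01 in lv_nc replicates 1 and 2, while the same median over all genes tested was at most 0.01 in every library. The highest of the 4 values fell in lv_Mettl3 replicate 2 for 17 of the 34 genes, against 22.2% of all genes tested, and in lv_nc replicate 2 for 11, against 5580 of 16391. The lowest value fell in lv_nc replicate 1 for 17 of the 34, against 22.3% of all genes tested. Over the 27 genes of the set with a mean of at least 100, the median absolute log2 gap between replicates was 0.126 in lv_Mettl3 and 0.159 in lv_nc, against 0.0992 and 0.208 over 10051 genes at that level.

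**Figure D4:**
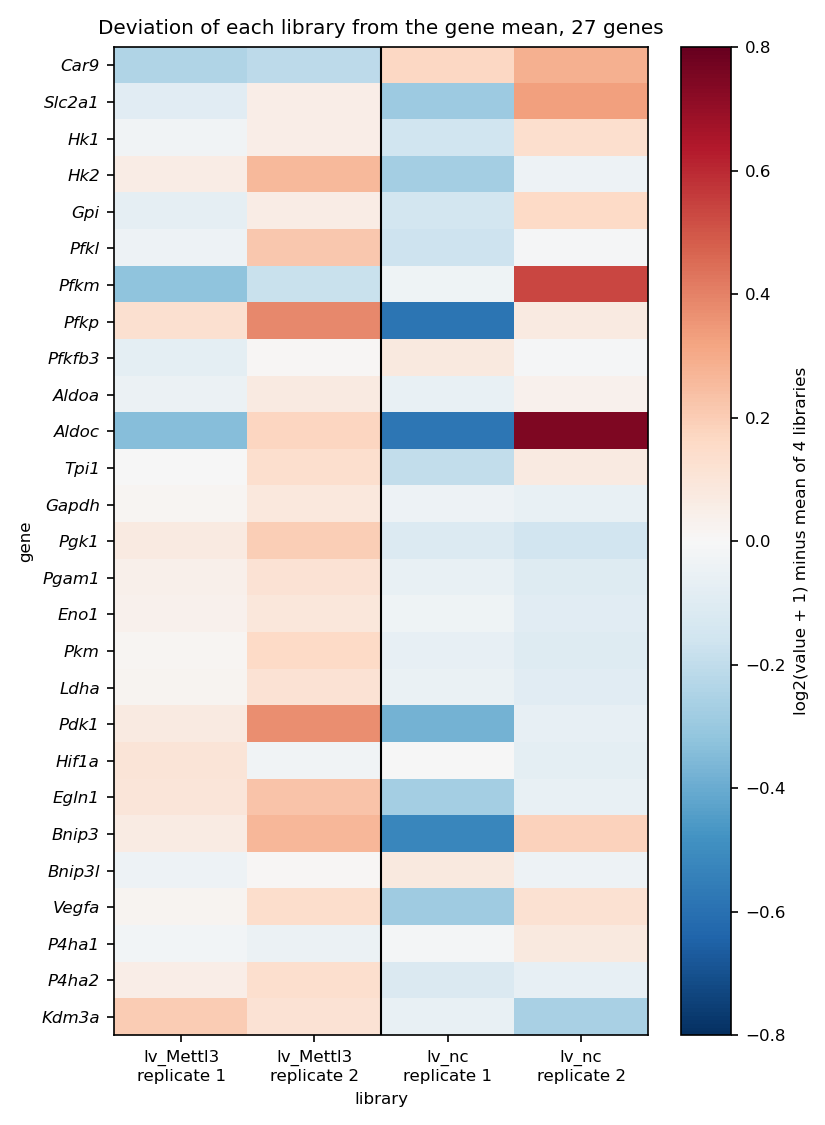
Log2(value + 1) of each library minus the mean of the 4 libraries (colour) for the 27 genes with a mean of at least 100, with the lv_Mettl3 libraries left of the line and the lv_nc libraries right of it. Slc2a1, Pfkm and Aldoc are high in lv_nc replicate 2, and Bnip3, Pfkp and Aldoc low in lv_nc replicate 1, so that these genes differ as much within lv_nc as between the groups.

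Other genes of the same pathways were taken from 4 lists, in which 110 of 131 symbols were found (a few symbols are older names of the same genes). Of the 103 tested, limma called 0, and DESeq2 called 1 higher, Pdk3, and 0 lower, of 90 with an adjusted p; at an unadjusted p under 0.05 limma had 9 higher and 6 lower. Over all genes tested the shares were 0.0183% for limma, and 5.54% higher and 4.93% lower at the unadjusted p. DESeq2 called 2.52% of all genes with an adjusted p. Of the 103 tested, the log2 fold change was above 0 for 38 (36.9%, against 50.7% of all genes tested) and below 0 for 65. The median of the 103 was -0.07. The transporter partner Bsg, at 28676 ± 1005 in lv_Mettl3 and 28447 ± 2029 in lv_nc, and the mitochondrial pyruvate carrier Mpc2, at 754 ± 46.3 in lv_Mettl3 and 761 ± 91.0 in lv_nc, differed by less than their SD.

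Of 5 gluconeogenic genes tested, all 5 had a log2 fold change below 0 and none was called by limma or DESeq2; 1, Pck2, had an unadjusted limma p under 0.05 (4.93% of all genes were lower at that p). Pck2, the mitochondrial PEP carboxykinase, had 483 and 482 in lv_Mettl3, against 623 and 805 in lv_nc (limma log2 fold change -0.55, SE 0.16, adjusted p = 0.442; DESeq2 adjusted p = 0.172). G6pc3, a glucose-6-phosphatase, and Slc37a4, the glucose 6-phosphate transporter, had log2 fold changes of -0.02 and -0.04. Pck1 and G6pc, the forms that proximal tubule and liver use to make glucose, did not exceed 2.77 and 1.03 in any library.

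Among 15 HIF system genes limma and DESeq2 called 0. At an unadjusted limma p under 0.05, 1 was higher and 2 lower, against 5.54% and 4.93% of all genes. DESeq2 called 2.52% of all genes with an adjusted p. Cited2, a HIF target that competes for the coactivator of HIF, was at 2296 ± 203 in lv_Mettl3 and 1823 ± 189 in lv_nc, and the ubiquitin ligase genes Rbx1 and Elob had log2 fold changes of -0.16 and 0.25. Arnt and Hif3a, the 2 genes lower at the unadjusted p, were named after their values were seen. Arnt, the partner of Hif1a in the HIF dimer, had 859 and 829.8 in lv_Mettl3, against 1041 and 1135 in lv_nc. Its limma log2 fold change was -0.36 (SE 0.10, adjusted p = 0.442, DESeq2 adjusted p = 0.412). Hif3a had 32.9 and 26.9 in lv_Mettl3, against 51.8 and 138 in lv_nc. Its limma log2 fold change was -1.48 (SE 0.52, adjusted p = 0.4645, DESeq2 adjusted p = 0.107). Of 47 other hypoxia-inducible genes tested, 22 were above 0 and 25 below, and limma and DESeq2 called 0, with 7 higher and 2 lower at an unadjusted limma p under 0.05, where all genes had 5.54% higher and 4.93% lower. The collagen crosslinking genes Lox, Plod2 and Plod1, the highest of that list per kilobase, had log2 fold changes of -0.25, -0.26 and -0.14. Lox was 1 of the 2 genes lower at the unadjusted p. Of the 7 higher, named after their values were seen, Angptl4 had 0.92, Ak4 0.54, Wsb1 0.45, Loxl4 0.33 and Ero1a 0.32. Flt1, another of the 7, had 2.33 but did not exceed 19.1 in any library.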

How the data were processed

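Poly(A) RNA of 4 libraries was sequenced. The submitters' processing notes name CASAVA 1.4 and HISAT2; no source used here names the counter, build or annotation. The deposited library columns hold a signal, gene read counts divided by the authors by 1 size factor per library (0.943, 0.968, 1.02 and 1.08 in lv_Mettl3 replicates 1 and 2 and lv_nc replicates 1 and 2): 100% of values were whole multiples of the smallest positive value within 0.001 reads, so whole reads were recovered. The table also holds log2 fold change, p-value and adjusted p columns deposited by the authors, which are not printed. Gene lengths in bases and group means are as deposited.

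Limma 3.58.1 (trend) was run on log2(value + 1), a scale that understates changes of low genes, over 16391 genes with at least 1 in at least 2 libraries; all 34 genes passed. DESeq2 1.42.0 called 318 genes and edgeR 4.0.16 (quasi-likelihood) 5 on recovered reads. R was 4.3.3 and Python 3.11.15. The fits were tested on simulated data with 2-fold and 4-fold changes. DESeq2 made 32 false calls of 204, limma 16 of 182 and edgeR 18 of 185. Of 100 genes changed 2-fold, limma recovered 70, DESeq2 76 and edgeR 71. Low genes were not among those changed, so these rates do not cover Egln3, Ndrg1, Car12, Eno2, Slc16a3 and Pfkfb4. Libraries were simulated as independent. Smaller changes were not simulated.

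The genes, lists and tests were chosen with earlier results of these data known. Full values were given for genes called by any tool, the 10 largest limma changes with 5 or more CPM, 12 genes fixed by name, isoenzymes with a share, and of other lists the called genes and up to 3 by level. Per-length values divide by deposited length. Promoters are from RefSeq (GRCr8).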

Additional observations from a re-analysis of the deposited data

How the results depend on the processing

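Limma called 3 genes in all and 0 with a pseudocount of 0.1. It called 5 with at least 10 in all 4 libraries and 24 with robust empirical Bayes. DESeq2 called 318, edgeR 5 and limma-voom 5. Of the glycolysis and hypoxia genes, limma called 0 under every limma, edgeR and voom alternative run, and DESeq2 called 1; the DESeq2 count was 0 to 6 over the fits without 1 library. The median log2 fold change of the set was 0.007 to 0.19 in limma without 1 library and 0.095 with library size scaling. Of 254 values for 17 named genes, 5 changed sign and 1 became called. DESeq2 fits without 1 library are not among the 254, and for the limma fits without 1 library only the sign is read. Car9 was called by DESeq2 (-0.45), and 5 values changed sign without 1 library: Slc2a1 (0.271 and 0.0347, range -0.349 to 0.271), Bnip3 (-0.0187 to 0.686), Vegfa (-0.0403 to 0.364) and Ndrg1 (-0.01 to 0.763). Without 1 library Pkm ranged from 0.10 to 0.244, Ldha from 0.094 to 0.189, Hif1a from 0.013 to 0.143 and Kdm3a from 0.218 to 0.42. The causes were not tested. Differences in share on counts not divided by length were 1.59 points for Pdk1, 2.97 for Slc2a1 and 10.7 for Egln1, because the genes of a family differ in length. With a replicate block, limma called 3 genes and 0 of the set, and DESeq2 called 1 of the set, Car9 (adjusted p = 0.0414). Replicate 1 minus replicate 2 differences correlated between the groups at 0.325 across 10051 genes, but the labels do not say whether the numbers mark a shared culture or day, so whether the libraries are paired is not known. Depth limits Egln3, Ndrg1, Car12, Eno2, Slc16a3 and Pfkfb4, which had too few reads for modest differences to be detectable.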
